A study of Mus musculus with 12 samples.

Results

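The transferrin receptor Tfrc and 5 genes that store, sense or recycle iron (Fth1, Ftl1, Aco1, Ireb2 and Hmox1) were followed across 4 mouse cell lines. The members were every probe set annotated with 1 of these 6 symbols or an older synonym, together with the array maker's control probe sets for the transferrin receptor. That rule found 11 of the 12488 probe sets on the array, 5 of them for Tfrc and 3 of those 5 being controls. The genes were selected on differences in signal between these same arrays. Their levels and differences are therefore given as a description and without a test.

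All 4 lines were mouse embryonic fibroblasts of a DBA background with the genotype KSR1 -/-, and all carried green fluorescent protein (GFP). KSR1 holds the kinases Raf, MEK and ERK together on a shared scaffold, and H-RasV12 is an oncogenic form of the small GTPase Ras, which switches that cascade on. The double line expressed KSR1 and H-RasV12, the KSR1 line expressed KSR1, the H-RasV12 line expressed H-RasV12, and the GFP line expressed GFP with neither. Each line was measured on 3 arrays. No label says that the arrays came from separate cultures, so their spread may be technical, and each condition rests on 1 cell line.

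Cells take up iron by binding iron-loaded transferrin at the transferrin receptor and drawing the complex inside, and they store what they do not use in ferritin, a shell built of heavy chains (Fth1) and light chains (Ftl1). The iron regulatory proteins Aco1 (IRP1) and Ireb2 (IRP2) bind RNA hairpins when iron is scarce: they protect the Tfrc mRNA from decay and hold back translation of the ferritin mRNAs. Hmox1 opens the heme ring and releases its iron. Tfrc is also a growth-linked gene, since dividing cells need iron for DNA synthesis and respiration.

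The start of Tfrc is shown first because most of the differences described here lie in this gene. The sequences come from RefSeq on the build GRCm38.p6, where Tfrc lies on the plus strand of chromosome 16. The 250 bases before its first annotated start (chr16:32608646-32608895) hold no match to any motif searched. The 30 bases across that start (chr16:32608892-32608921) hold ACGTG, the core letters of the hypoxia response element, and TGACG, letters found in cAMP response elements. Capitals mark these 2 matches.
Tfrc, before the start: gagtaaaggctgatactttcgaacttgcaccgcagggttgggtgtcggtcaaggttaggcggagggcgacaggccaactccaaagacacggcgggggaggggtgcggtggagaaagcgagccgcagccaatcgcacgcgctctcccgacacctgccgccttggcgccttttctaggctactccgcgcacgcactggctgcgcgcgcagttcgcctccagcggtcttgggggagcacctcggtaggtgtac
Tfrc, across the start: gtACGTGcggaaggaagTGACGtagatcca
The light ferritin chain is shown for contrast. Its probe set, annotated also to the pseudogene Ftl1-ps2, was the only one of the 11 higher on every double-line array than on every KSR1 array. Of all tested probe sets 13.9% share that arrangement. The 250 bases before the annotated start of Ftl1 (chr7:45459887-45460136, minus strand) hold 1 match to GGGCGG, the GC box. It is read here on the other strand as CCGCCC and is in capitals.
Ftl1, before the start: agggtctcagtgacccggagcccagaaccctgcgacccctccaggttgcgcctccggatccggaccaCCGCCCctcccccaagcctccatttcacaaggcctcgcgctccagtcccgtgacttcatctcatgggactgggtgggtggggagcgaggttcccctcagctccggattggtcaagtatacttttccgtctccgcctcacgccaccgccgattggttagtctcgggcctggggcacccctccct

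Motifs were searched on both strands of windows reaching from 250 bases before to 50 bases after each annotated start. They were ACGTG as above, the E-box CACGTG bound by Myc, which contains the first motif, then TGACG as above, the AP-1 element TGANTCA, the antioxidant response element TGACNNNGC (which can overlap TGACG) and the GC box GGGCGG. Windows were given for 5 of the 6 genes, with 2 each for Tfrc and Fth1. The first motif was present in both Tfrc windows, which overlap and share that match, and in no window of the other 4 genes; 19.6% of all 32851 windows hold it. The letters TGACG were present in the Tfrc windows and in 1 Fth1 window, against 20.8% of all windows. No window of the 5 genes held the E-box, found in 7.15% of all windows, the AP-1 element, found in 7.81%, or the antioxidant response element, found in 12.4%. The GC box matched in at least 1 window of every one of the 5 genes, with 35.7% of all windows holding it. A match is a string of letters and not a measured binding site.

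Values are MAS5 signals, intensities on a linear scale that the authors' software computed for each probe set, and differences are between mean log2(value + 23); the added constant shrinks differences of dim probe sets. The pseudocount of 23 is the 20th percentile of all values. To enter the tests a probe set had to exceed 181, the median over all arrays, at least 3 times among its 12 values. Of the 11 member probe sets 7 entered; Aco1 lay below that level on all 12 arrays, and the 3 controls were left out with all other controls. Signals of different probe sets are not set against each other, and 3 arrays per line limit the precision of every value.

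The labels were checked on Ksr1 itself. Probe set 92765_s_at read 301, 262 and 141 on the double-line arrays and 933, 1605 and 207 on the KSR1 arrays, against 20.2, 32.2 and 14.2 on the H-RasV12 arrays and 144, 21.1 and 37.5 on the GFP arrays. Replicate 1 of the GFP line thus lay above replicate 3 of the double line. The other Ksr1 probe set, 92764_at, did not separate the lines: it read 294, 324 and 265 on the double-line arrays and 266, 366 and 216 on the KSR1 arrays, against 188, 231 and 180.2 on the H-RasV12 arrays and 324, 225 and 232 on the GFP arrays. The lines also differed in cell type markers, whose sums run over every marker of a list with a probe set, dim ones included. Of 10 fibroblast markers 8 passed the filter (Vim and Thy1 did not), and the sum over all 10 ran from 19865 to 31223 on the double-line arrays, 37662 to 38715 on the KSR1 arrays, 48547 to 68249 on the H-RasV12 arrays and 48328 to 63461 on the GFP arrays. The markers did not all follow the sum: Col1a1 averaged 2133 in the double line, 8461 in the KSR1 line, 17857 in the H-RasV12 line and 18526 in the GFP line, while Dcn averaged 2311, 5751, 4894 and 2807 in the same order, and Pdgfra and S100a4 were also higher in KSR1 than in GFP cells. Of 6 epithelial markers 2 passed, with sums of 1680.2 to 2083 in the double line, 912 to 1630.3 in the KSR1 line, 615 to 875 in the H-RasV12 line and 644 to 1048 in the GFP line, while Epcam did not exceed 31.4 on any array. Krt19 made up most of that difference, with means of 1209 in the double line, 418 in the KSR1 line, 90.2 in the H-RasV12 line and 118 in the GFP line, whereas Cdh1 averaged 595, 758, 525 and 579.5. Of 6 erythroid markers with a probe set 2 passed, and the sums lay between 411 and 709 on all 12 arrays. Of 10 macrophage markers 2 passed (Cd14 and C1qb). Sums over all 10 were 1735 to 1961 in the double line and 2233 to 4323 in the KSR1 line. They were 1469 to 1758 in the H-RasV12 line and 1356 to 2494 in the GFP line. Cd14 averaged 1441 in the double line, 2250 in the KSR1 line, 1200 in the H-RasV12 line and 1126 in the GFP line. C1qb averaged 125, 227, 105 and 128 in the same order. Csf1r ran up to 567 and Fcgr1 up to 323, while Ptprc and Lyz2 stayed at or below 27.4. Of 5 endothelial markers 1 passed, and the sums lay between 131 and 436. In such bulk RNA, fewer cells of a type and less RNA per cell cannot be told apart. The part of these markers in the differences below was not tested.

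By group means, Tfrc stood higher in both lines that carry KSR1 than in both lines without it. Of its probe sets only 103957_at had no overlap between the 6 arrays with KSR1 and the 6 without. Probe set 103957_at read 316, 741 and 383 on the double-line arrays and 479.7, 834 and 578 on the KSR1 arrays. It read 187, 249 and 96.5 on the H-RasV12 arrays and 149, 171 and 111 on the GFP arrays. All 6 arrays with KSR1 lay above all 6 arrays without it, an arrangement that 2.25% of the 6897 tested probe sets share. The means were 480.3 ± 228 in the double line, 631 ± 183 in the KSR1 line, 178 ± 76.8 in the H-RasV12 line and 144 ± 30.3 in the GFP line (SD, n = 3 each). In order of level the KSR1 line came first and the double line second, then the H-RasV12 line and the GFP line. The first pair overlapped, as did the last pair, and the double and H-RasV12 lines did not.

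The log2 difference of 103957_at was 1.95 ± 0.36 between KSR1 and GFP cells (limma SE), a fold of 3.86. Between the double line and H-RasV12 cells it was 1.32 ± 0.36, a fold of 2.49, and between the double line and GFP cells it was 1.52 ± 0.36. These comparisons share the GFP and the double-line arrays and are not independent of each other. H-RasV12 went with smaller differences, which were 0.20 ± 0.36 for H-RasV12 cells against GFP cells and -0.43 ± 0.36 for the double line against KSR1 cells. The response to H-RasV12 with KSR1 minus the response without it was -0.63 ± 0.51.

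The other ordinary Tfrc probe set, 103958_g_at, had its group means in the same order but did not separate the lines. It read 2043, 2851 and 2357 on the double-line arrays and 2159, 4728 and 2049.8 on the KSR1 arrays, against 1937, 2552 and 1917 on the H-RasV12 arrays and 1871, 1753 and 2054 on the GFP arrays. Its groups overlapped in every comparison. The log2 difference between KSR1 and GFP cells was 0.54 ± 0.27, of which 1 array carried most: without replicate 2 of the KSR1 line it was 0.15 ± 0.19. Between the double line and H-RasV12 cells the difference was 0.18 ± 0.27, and between the double line and GFP cells 0.34 ± 0.27. The double line against KSR1 cells gave -0.20 ± 0.27, and 0.18 ± 0.19 without replicate 2 of the KSR1 line.

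**Figure D1:**
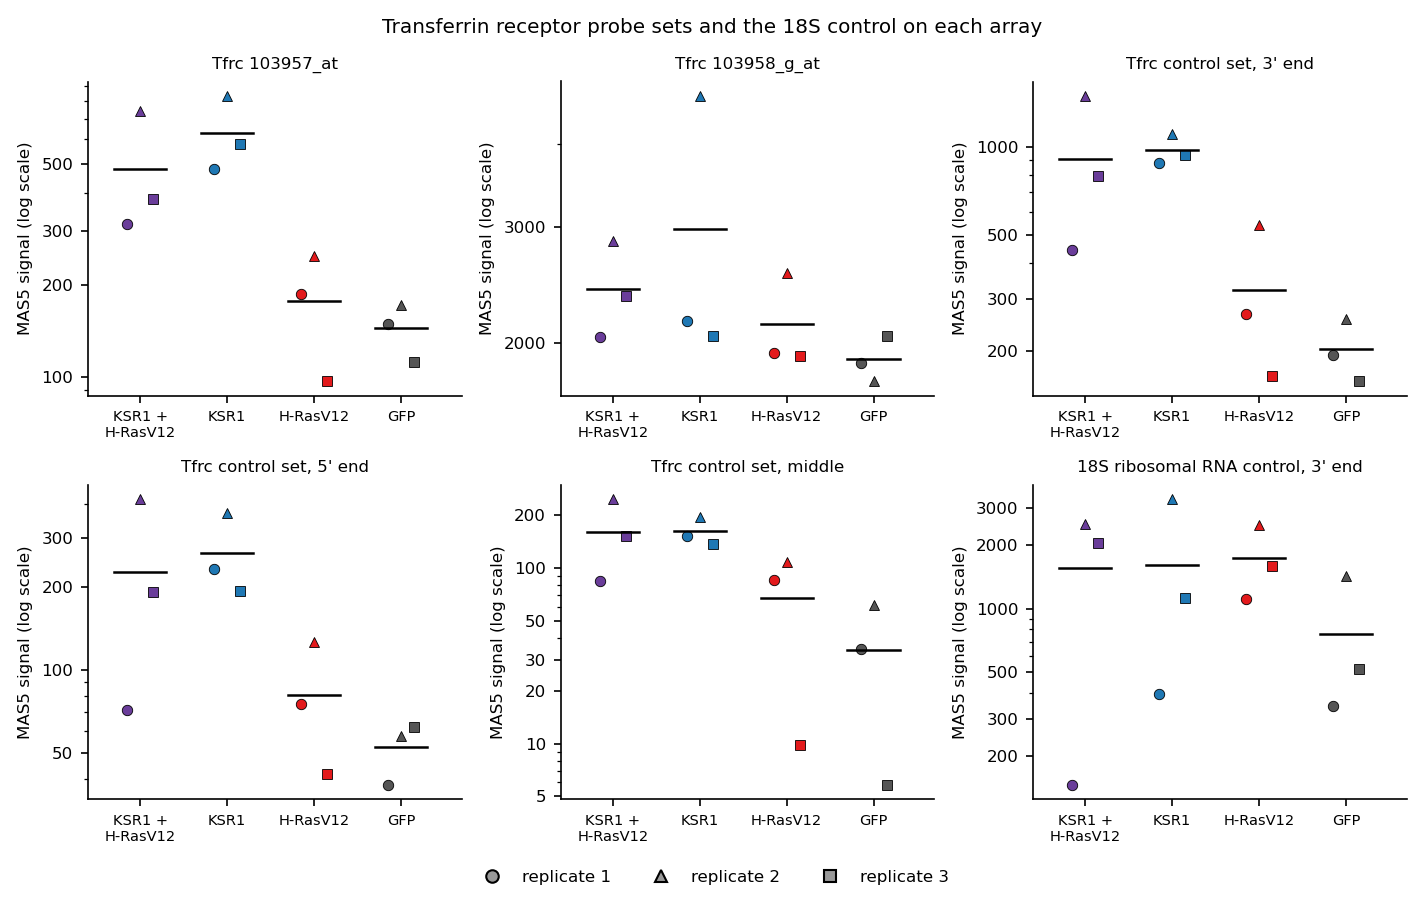
MAS5 signal (log axis, each panel with its own range) of the 5 Tfrc probe sets and of the 18S ribosomal RNA control on each of the 12 arrays, with the symbol giving the replicate number and the bar the mean of 3 arrays. On 103957_at the 6 arrays with KSR1 lie between 316 and 834, above the 6 without it at 96.5 to 249, while 103958_g_at overlaps between lines.

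The 3 control probe sets read the transferrin receptor mRNA at its 3' end, its middle and its 5' end. The 3' set read 442, 1496 and 794 on the double-line arrays and 882, 1109 and 934 on the KSR1 arrays. It read 268, 540.2 and 164 on the H-RasV12 arrays and 194, 256 and 157 on the GFP arrays. The KSR1 and double lines each lay above the GFP line without overlap, whereas replicate 1 of the double line lay below replicate 2 of the H-RasV12 line. Its log2 difference was 2.16 ± 0.42 between KSR1 and GFP cells, 1.41 ± 0.42 between the double line and H-RasV12 cells, and 1.91 ± 0.42 between the double line and GFP cells. The double line against KSR1 cells gave -0.26 ± 0.42, and H-RasV12 against GFP cells 0.50 ± 0.42.

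The 5' set read 71.7, 416 and 192 on the double-line arrays and 233, 371 and 193 on the KSR1 arrays, against 75.3, 126 and 41.9 on the H-RasV12 arrays and 38.2, 57.5 and 61.7 on the GFP arrays. The middle set read 84.9, 247 and 152 on the double-line arrays and 152, 195 and 138 on the KSR1 arrays, against 85.0, 109 and 9.76 on the H-RasV12 arrays and 34.4, 61.7 and 5.82 on the GFP arrays. On both sets the KSR1 and double lines lay above the GFP line without overlap, and replicate 1 of the double line was the low one of its group, below replicate 2 of the H-RasV12 line. Between KSR1 and GFP cells the log2 difference was 1.90 ± 0.49 on the 5' set and 1.82 ± 0.54 on the middle set. Between the double line and H-RasV12 cells it was 1.08 ± 0.49 on the 5' set and 1.15 ± 0.54 on the middle set. The middle set was over the filter level on 2 of 12 arrays and the 5' set on 5, and the size of their differences turned on the pseudocount: with 1 in place of 23 the middle set gave 2.70 between KSR1 and GFP cells, and with 100 it gave 0.98.

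The ratio of the 3' to the 5' Tfrc control set shows how evenly the mRNA was read along its length. Relative to the median array, its log2 value was 0.62, -0.16 and 0.04 on the double-line arrays and -0.09, -0.43 and 0.26 on the KSR1 arrays. It was -0.18, 0.09 and -0.04 on the H-RasV12 arrays and 0.34, 0.15 and -0.66 on the GFP arrays. All 4 lines overlapped, with replicate 1 of the double line at the high end. The same ratio for the Gapdh controls stayed within -0.12 to 0.13 on all 12 arrays. For the Actb controls it was 0.27, -0.00044 and 0.37 on the double-line arrays and -0.18, -0.32 and -0.09 on the KSR1 arrays, against 0.00044, -0.29 and 0.28 on the H-RasV12 arrays and 0.36, -0.01 and 0.40 on the GFP arrays. The KSR1 arrays thus lay below the double-line and the GFP arrays on Actb without overlap, and the part of this in the Tfrc differences was not tested.

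Replicate 2 carried the highest value in all 4 lines for 103957_at, for the 3' control set and for the middle control set, and in 3 of 4 lines for the other 2 Tfrc probe sets. The 18S ribosomal RNA control did the same, with 2517 in the double line, 3312 in the KSR1 line, 2491 in the H-RasV12 line and 1427 in the GFP line on replicate 2. On replicate 1 that control read 146, 395, 1114 and 345 in the same order. The Actb 5' control also had replicate 2 highest in 4 of 4 lines, and the Actb 3' and both Gapdh controls in 1 of 4. The Actb 3' control read 8629 on replicate 1 of the double line, against 21091 and 24552 on its other arrays. In the GFP line replicate 1 read 7981, against 22137 and 21112.5. In the KSR1 and H-RasV12 lines that control was also lowest on replicate 1, at 16680 and 17239.5. The part of these controls in the Tfrc values was not tested. Taken within each replicate number, the 103957_at difference between KSR1 and GFP cells ran from 1.55 to 2.16 and that between the double line and H-RasV12 cells from 0.69 to 1.77, positive in 3 of 3 numbers each. For 103958_g_at, the KSR1 minus GFP difference ran from -0.0030 to 1.42 and was positive in 2 of 3 numbers. For the middle control set, the double minus H-RasV12 difference ran from -0.0017 to 2.42, and for the 5' control set from -0.05 to 1.73. Both were positive in 2 of 3 numbers. Each comparison of the 3' control set that has a KSR1 line on 1 side only was positive in 3 of 3 numbers, with 2.02 to 2.41 for KSR1 against GFP cells and 0.68 to 2.13 for the double line against H-RasV12 cells.

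The mRNAs of ferritin, the storage protein, showed differences under 0.5 on the log2 scale on every probe set. Ferritin protein was not measured. Fth1 probe set 94794_at read 16704.5, 15253 and 10822.5 on the double-line arrays and 12559, 11836 and 15048 on the KSR1 arrays, against 11769, 11557 and 11646 on the H-RasV12 arrays and 12642, 11682 and 13866 on the GFP arrays. The lines overlapped in every comparison. The log2 difference was 0.04 ± 0.21 between KSR1 and GFP cells and 0.27 ± 0.21 between the double line and H-RasV12 cells. The second Fth1 probe set, 161913_r_at, averaged 5622 ± 870.3 in the double line, 4951 ± 1112 in the KSR1 line, 6095 ± 384 in the H-RasV12 line and 5845 ± 762 in the GFP line (SD, n = 3 each). It differed by -0.25 ± 0.19 between KSR1 and GFP cells and by -0.13 ± 0.19 between the double line and H-RasV12 cells, so the sign in each pair was opposite to that of 94794_at. Every pair of lines overlapped on it as well.

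The light chain was read by 1 probe set, which the annotation gives to both Ftl1 and the pseudogene Ftl1-ps2, so the 2 transcripts cannot be separated. It read 18159, 19844 and 16380 on the double-line arrays and 13012, 12531 and 14468 on the KSR1 arrays. It read 15167, 14917.5 and 15545 on the H-RasV12 arrays and 13593, 15856 and 16737.5 on the GFP arrays. All double-line arrays lay above all KSR1 and all H-RasV12 arrays, and the lowest of them below the highest GFP array. The log2 difference was 0.44 ± 0.19 for the double line against KSR1 cells, a fold of 1.36, and 0.25 ± 0.19 against H-RasV12 cells. KSR1 against GFP cells gave -0.20 ± 0.19, and H-RasV12 against GFP cells -0.01 ± 0.19. The H-RasV12 response with KSR1 exceeded that without it by 0.45 ± 0.27.

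The iron regulatory proteins showed no separation between lines. Aco1 read 103, 88.5 and 75.6 on the double-line arrays and 72.6, 132 and 81.9 on the KSR1 arrays, against 89.5, 97.3 and 114 on the H-RasV12 arrays and 144, 99.9 and 155 on the GFP arrays. Its log2 difference was -0.41 ± 0.28 between KSR1 and GFP cells and -0.47 ± 0.28 between the double line and GFP cells, and the lines overlapped in both. Ireb2 read 339.8, 435 and 540.4 on the double-line arrays and 338, 308 and 462 on the KSR1 arrays, against 523, 401 and 347 on the H-RasV12 arrays and 486, 402 and 439 on the GFP arrays. Its differences lay between -0.26 ± 0.22, for KSR1 against GFP cells, and 0.23 ± 0.22, for the double line against KSR1 cells. These probe sets measure mRNA, and the RNA-binding activity of both proteins was not measured.

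Hmox1, which frees iron from heme, was highest in the double line. It read 3049.95, 3683 and 2783 on the double-line arrays and 2626, 2613 and 2783 on the KSR1 arrays, against 2568, 2266 and 1761 on the H-RasV12 arrays and 2059, 2719 and 2603 on the GFP arrays. The double-line arrays all lay above the H-RasV12 and the GFP arrays, and overlapped the KSR1 arrays. The means were 3172 ± 462 in the double line, 2674 ± 94.6 in the KSR1 line, 2198 ± 408 in the H-RasV12 line and 2460.4 ± 352 in the GFP line (SD, n = 3 each). The log2 difference of the double line was 0.53 ± 0.18 against H-RasV12 cells, a fold of 1.45, and 0.36 ± 0.18 against GFP cells. KSR1 against GFP cells gave 0.13 ± 0.18, with both lines overlapping.

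**Figure D2:**
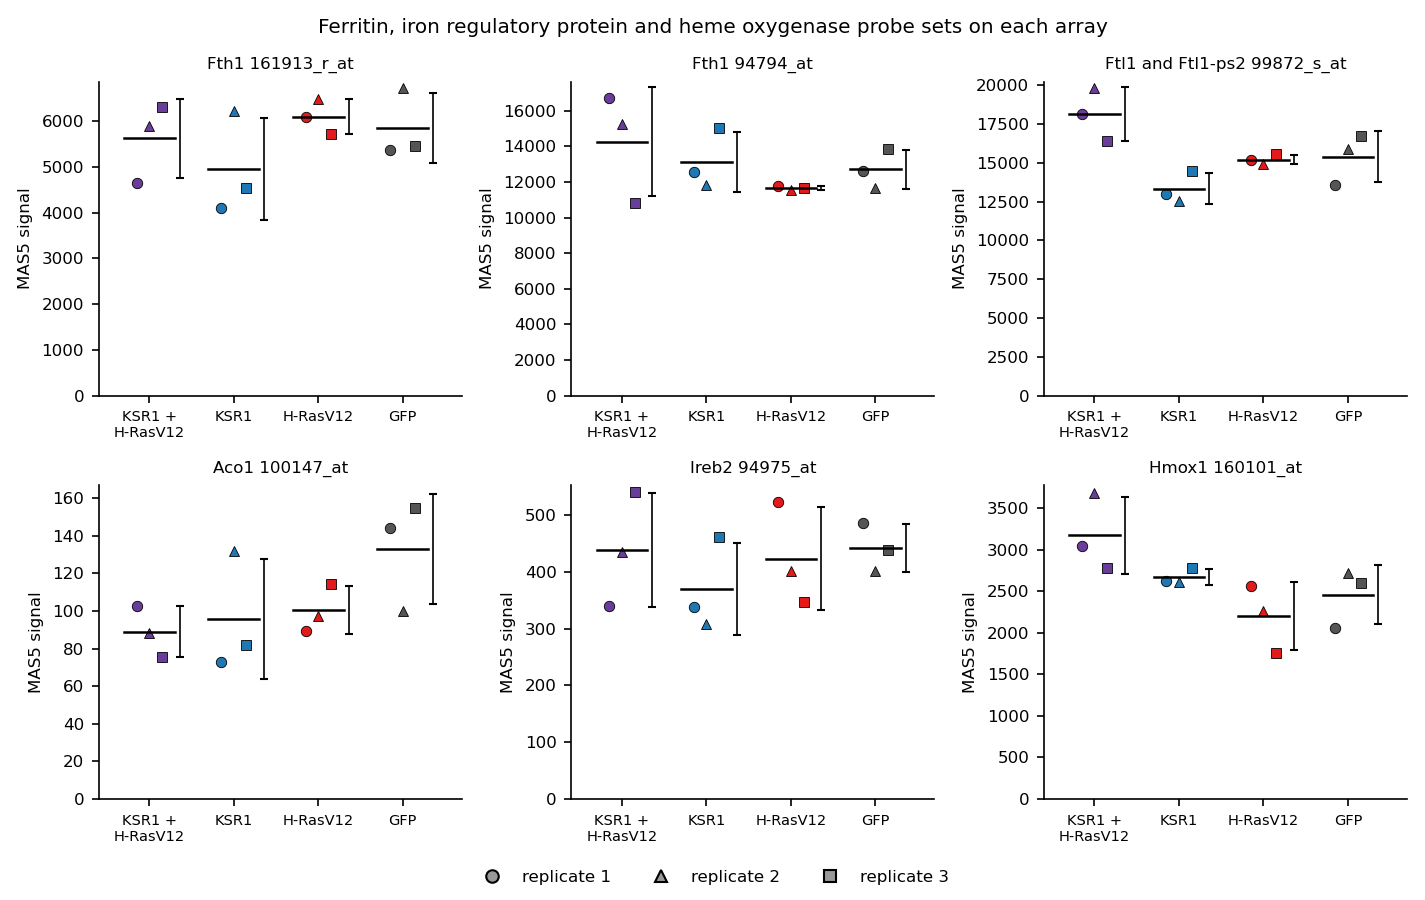
MAS5 signal (linear axis from 0) of the ferritin, iron regulatory protein and heme oxygenase probe sets on each of the 12 arrays, with the replicate number as symbol, the mean as a bar and ± SD over 3 arrays as a bracket. Ftl1 with Ftl1-ps2 is at 16380 to 19844 in the double line and 12531 to 14468 in the KSR1 line, and Hmox1 at 2783 to 3683 in the double line and 1761 to 2568 in the H-RasV12 line.

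Over all members, 5 of 11 probe sets had every double-line array above every GFP array, where 13.9% of tested probe sets did: Tfrc 103957_at, the 3 Tfrc controls and Hmox1. For KSR1 against GFP cells it was 4 of 11, against 14.9%, and all 4 were Tfrc probe sets, which read 1 gene. For the double line against H-RasV12 cells it was 3 of 11, against 13.8%, namely 103957_at, Ftl1 and Hmox1. For the double line against KSR1 cells it was 1 of 11, against 13.9%, and for H-RasV12 against GFP cells 0 of 11, against 6.73%. The 11 include the 3 controls and Aco1, which are not among the tested probe sets that give these shares. Of the tested members, only 103957_at and Hmox1 lay above GFP cells without overlap in the double line. In the KSR1 line only 103957_at did. No member had every array of the first line below every array of the second, an arrangement of 14.4% of tested probe sets for the double line against GFP cells, 15.8% for KSR1 against GFP cells, 15.5% for the double line against H-RasV12 cells, 14.1% for the double line against KSR1 cells and 5.23% for H-RasV12 against GFP cells. The median log2 difference of the 7 tested members was 0.04 for KSR1 against GFP cells, beside 0.04 over all 6897 tested probe sets. It was 0.25 for the double line against H-RasV12 cells, beside -0.05 over all, and 0.19 for the double line against KSR1 cells, beside -0.07. The 7 share genes and were chosen with these differences known.

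**Figure D3:**
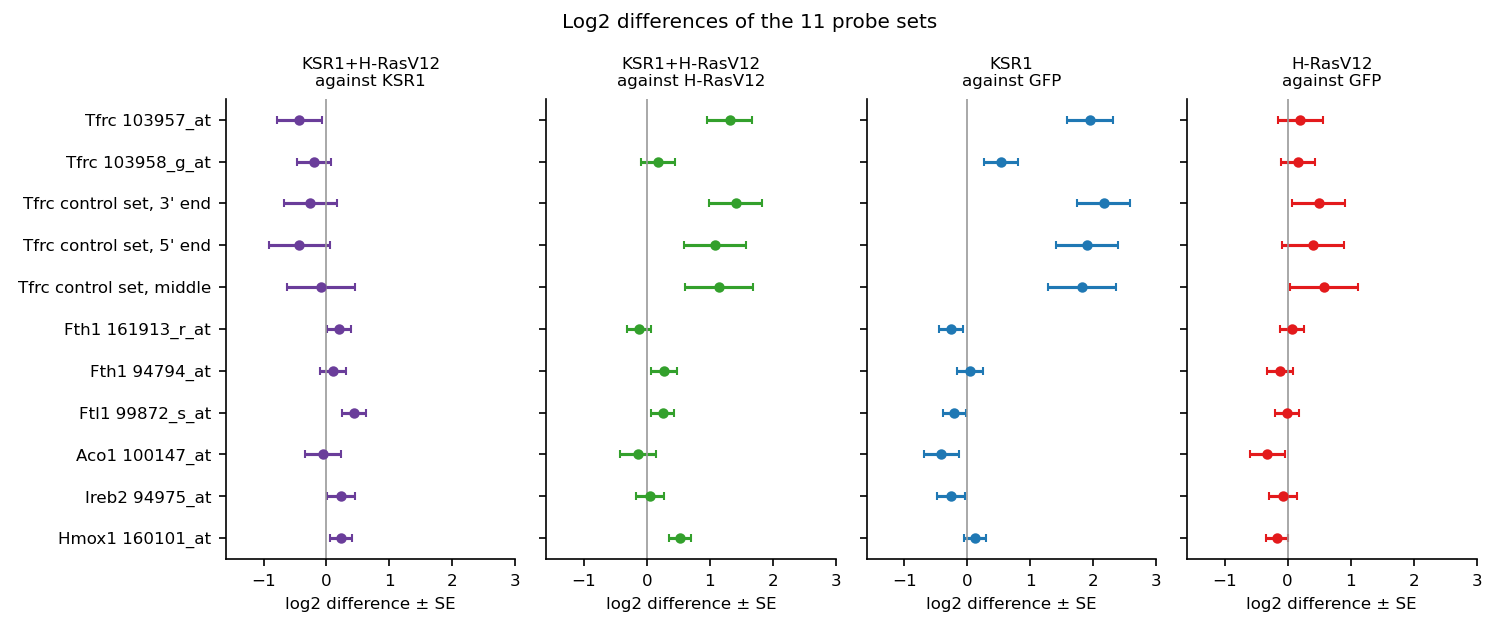
Difference in mean log2(value + 23) ± limma SE of the 11 member probe sets in 4 comparisons, with probe sets down the page and 0 as a grey line. The Tfrc sets other than 103958_g_at lie between 1.82 and 2.16 for KSR1 against GFP cells, while the ferritin, iron regulatory protein and Hmox1 sets lie between -0.41 and 0.13.

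Likeness to Tfrc was measured as the mean absolute difference, over the 12 arrays, between log2 values each centred on its own mean. The rule for it took the Tfrc probe set with the highest mean, 103958_g_at, and asked for group means spanning at least 1 log2 unit; that set spans 0.54, so the rule named no gene. For 103957_at, which spans 1.95 and was taken after its values were seen, the 4 nearest of 6243 probe sets were Tuft1 at 0.32, Atp1b1 at 0.32, Clcn3 at 0.34 and Erbb3 at 0.35. Tuft1, which encodes tuftelin, ran from 413 to 859 on the 6 arrays with KSR1 and from 200.1 to 310 on the 6 without. Atp1b1, the beta subunit of the sodium pump, ran from 359.9 to 624 with KSR1 and from 134 to 277 without. Clcn3, a chloride transporter, ran from 841 to 1868 with KSR1 and from 286 to 701 without. Erbb3, a receptor of the epidermal growth factor receptor family, ran from 66.2 to 244 with KSR1 and from 55.0 to 93.7 without, and its 2 ranges overlap.

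Other genes of iron uptake, heme synthesis, iron-sulfur cluster assembly, iron sensing and the NRF2 antioxidant response were taken from 5 lists of 85 genes, of which 55 had a probe set with 1 symbol and 43 were tested. In KSR1 against GFP cells 2 rose and 0 fell (4.65% of the 43, where 11.8% of all probe sets were called). In the double line 9 rose and 1 fell against H-RasV12 cells (23.3%, against 14.8% of all), 9 rose and 3 fell against GFP cells (27.9%, against 15.6%), and 9 rose and 3 fell against KSR1 cells (27.9%, against 15.1%). H-RasV12 cells showed 0 limma calls against GFP cells (where 0.0725% of all were called). An unadjusted limma p under 0.05 was found for 2 of the 43, beside 411 of all 6897 tested probe sets. These lists, like the members, were chosen with earlier results of these data known. Each listed gene was read by its brightest probe set, while the shares of all count every tested probe set. The shares and p-values of listed genes are therefore a description and no independent support. The counts moved with single arrays. Against KSR1 cells the 12 calls became 6 without replicate 1 or without replicate 2 of the KSR1 line, 5 without replicate 2 of the double line and 6 without replicate 3 of the double line. Against GFP cells the 12 became 6 without replicate 3 of the GFP line. The 2 for KSR1 against GFP cells became 4 without replicate 1 of the GFP line or replicate 1 of the double line.

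Cp, the copper ferroxidase ceruloplasmin that oxidises iron for loading onto transferrin, was higher in both lines with KSR1. It read 771, 2096 and 1271 on the double-line arrays and 1767, 887 and 832 on the KSR1 arrays, against 292, 199.7 and 236 on the H-RasV12 arrays and 483, 127 and 294 on the GFP arrays. It rose by 1.95 ± 0.42 in KSR1 against GFP cells (limma adjusted p = 0.00736) and by 2.30 ± 0.42 in the double line against H-RasV12 cells (adjusted p = 0.00173). All 6 arrays with KSR1 lay above the 6 without, as on 2.25% of tested probe sets. Slc11a2, the divalent metal transporter DMT1 that moves iron out of the endosome, rose on probe set 104451_at in the double line against H-RasV12 cells by 1.55 ± 0.25 (adjusted p = 0.000653). It averaged 1689.9 ± 186 in the double line, 884 ± 171 in the KSR1 line, 565 ± 110 in the H-RasV12 line and 874 ± 364 in the GFP line. A second Slc11a2 probe set, 102642_at, differed by 0.37 in the same comparison and was not called, so the 2 sets disagree in size.

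Of 12 tested genes of iron-sulfur cluster assembly and mitochondrial iron 3 rose and 0 fell in the double line against KSR1 cells (25% called), and of 7 of heme synthesis 1 rose and 0 fell (14.3%), beside 15.1% of all probe sets. Fdx1, a ferredoxin that passes electrons, rose by 1.78 ± 0.31 against KSR1 cells (limma adjusted p = 0.00108). It read 2863, 4675 and 6081 on the double-line arrays and 976 to 1576 on the KSR1 arrays. Alas1, the first enzyme of heme synthesis, rose by 0.76 ± 0.15 against KSR1 cells (adjusted p = 0.00294), with 1300.1, 1382 and 1413 on the double-line arrays and 757 to 822 on the KSR1 arrays. Hspa9, a mitochondrial chaperone that takes part in cluster transfer, rose by 1.04 ± 0.18 against KSR1 cells (adjusted p = 0.00116), with 7928, 9209 and 10507 on the double-line arrays and 3803 to 5014 on the KSR1 arrays. Against GFP cells Hspa9 differed by 0.51 and was not called (adjusted p = 0.0746). On Fdx1, Alas1 and Hspa9, named for their large changes, the lowest double-line array lay above the 9 arrays of the other lines. The share of all probe sets with that arrangement was not counted. Taken line by line, the double line lay above without overlap on 13.9% of tested probe sets against KSR1 cells. The share was 13.8% against H-RasV12 cells and 13.9% against GFP cells.

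Hif1a, the oxygen-regulated subunit of the factor that binds hypoxia response elements, rose on probe set 98629_f_at by 0.83 ± 0.18 in the double line against H-RasV12 cells (limma adjusted p = 0.00601), with means of 11247 ± 730.2 in the double line and 6314 ± 271 in the H-RasV12 line (SD, n = 3 each). Its second probe set, 98628_f_at, rose by 0.64 in that comparison and was also called. Means of 98629_f_at were 7242 ± 1283 in the KSR1 line and 8592 ± 1546 in the GFP line. Against GFP cells the double line differed by 0.40 on 98629_f_at (limma adjusted p = 0.173) and by 0.29 on 98628_f_at, neither called. H-RasV12 against GFP cells gave -0.43 on 98629_f_at, not called either. Other genes of its list (heme breakdown, iron chaperones and iron sensing, 11 tested) fell in the double line. Against GFP cells 0 rose and 2 fell, Zfp36 (-0.981) and Skp1 (-0.856). Against KSR1 cells 2 rose, Hif1a and Ncoa4, and the same 2 fell (-1.004 and -0.853). Against H-RasV12 cells 2 rose and 0 fell. Each of the calls on Zfp36 and Skp1 ended without at least 1 array. The NRF2 targets did not move one way. Nqo1, a quinone reductase, fell by 1.34 ± 0.21 in the double line against KSR1 cells (adjusted p = 0.000572), with 356, 406 and 346 on the double-line arrays and 1036, 724 and 1205 on the KSR1 arrays. A second Nqo1 probe set, 94350_f_at, fell by 1.18 in that comparison and was called too. Srxn1, sulfiredoxin, rose by 1.29 ± 0.26 in the double line against H-RasV12 cells (adjusted p = 0.00369), as did Gclc, a subunit of the enzyme that begins glutathione synthesis, by 0.88 ± 0.19 (adjusted p = 0.00457). Gsr, glutathione reductase, rose by 1.33 ± 0.27 in KSR1 against GFP cells (adjusted p = 0.00432). Over these lists limma made 42 calls in all, interaction included (7.7% of all probe sets were called there): 19 of them, among them each call given here with a p, held without any 1 array, and 23 ended without at least 1.

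**Figure D4:**
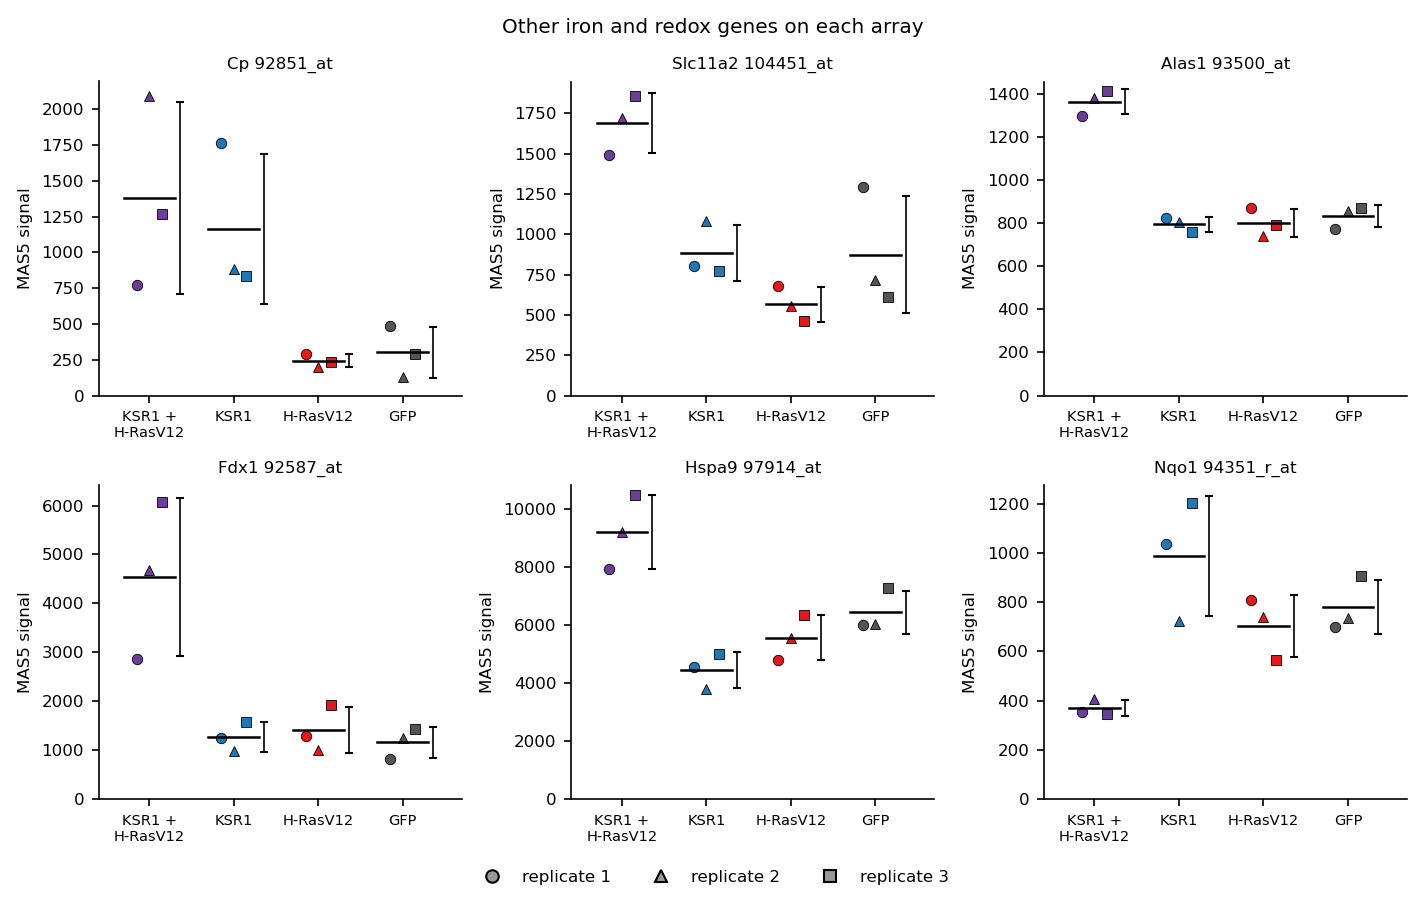
MAS5 signal (linear axis from 0) of Cp, Slc11a2, Alas1, Fdx1, Hspa9 and Nqo1 on each of the 12 arrays, with the replicate number as symbol, the mean as a bar and ± SD over 3 arrays as a bracket. Cp is at 771 to 2096 in the double line and 832 to 1767 in the KSR1 line, above both lines without KSR1, while Nqo1 is at 346 to 406 in the double line and 724 to 1205 in the KSR1 line.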

How the data were processed

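Total RNA was labelled with the Affymetrix 1-cycle kit and hybridised to 12 arrays, per the labels' protocols. The authors deposited linear intensities computed with MAS5, per the submitters' processing notes; its version is not given here. The 2% trimmed mean is 500.3 on every array, and the values were used without rescaling. Medians ran from 160.6 to 216. Symbols came from the platform annotation, updated by gene identifier. One limma fit (limma 3.58.1, R 4.3.3) of log2(value + 23) with 4 group means, 8 residual degrees of freedom and an intensity trend served all 6 comparisons, with two-sided p-values adjusted by Benjamini-Hochberg over 6897 probe sets; 5525 lay below the filter and 66 controls were left out. Members' differences and SEs come from the same model over all 12488 probe sets. For each other gene the probe set with the highest mean stood for it, and up to 4 called genes with the largest change were taken per list and comparison, from which the text describes a selection. The likeness rule is given with its result. The members and lists were chosen with earlier results of these data known. The fit was tested on simulated data for KSR1 against GFP cells. It recovered 54% of 100 changes of 2-fold and 95% of 100 changes of 4-fold, and called 9 unchanged probe sets. The lack of a call therefore does not show that a 2-fold change was absent. Alternatives changed the pseudocount, filter, normalization, trend, weights, replicate block and arrays used.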

Additional observations from a re-analysis of the deposited data

Results flagged for a closer look

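The response to H-RasV12 with KSR1 present was tested against the response without it (limma interaction). Of the 43 listed genes tested outside the members, 6 were called (14%, against 7.7% of all 6897 probe sets). The lists were chosen with earlier results of these data known, so these calls are a description and no independent support. The difference of responses was 1.25 for Hspa9 on the log2 scale (adjusted p = 0.00832), and it held without any 1 array, with adjusted p up to 0.0289. It was 1.48 for Slc11a2 (adjusted p = 0.0211), whose call ended without replicate 3 of the H-RasV12 line (1.34) and without replicate 3 of the KSR1 line (1.39). It was 1.08 for Hif1a (adjusted p = 0.0204), whose call ended without replicate 2 of the H-RasV12 line (1.07) and without replicate 2 of the KSR1 line (0.92). It was -1.19 for Nqo1 (adjusted p = 0.025), whose call ended without replicate 1 or 2 of the GFP line, replicate 1 or 2 of the H-RasV12 line, or replicate 1 or 3 of the KSR1 line, with values of -1.15 to -1.03. It was 0.82 for Alas1 (adjusted p = 0.0295) and 1.52 for Fdx1 (adjusted p = 0.0458), and each call ended in 8 of the 12 omissions of 1 array, with values of 0.77 to 0.88 for Alas1 and 1.28 to 1.82 for Fdx1 over all 12. The Alas1 call ended without replicate 2 or replicate 3 of any of the 4 lines. The Fdx1 call ended without replicate 2 or 3 of the double line, replicate 1 or 2 of the KSR1 line, replicate 1 or 2 of the H-RasV12 line, or replicate 2 or 3 of the GFP line. The second probe sets gave interactions of 0.14 for Slc11a2 (102642_at), 0.78 for Hif1a (98628_f_at) and -1.08 for Nqo1 (94350_f_at), and none of these 3 was called.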

How the results depend on the processing

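Of 1518 member values under the alternatives, 1501 moved by less than the spread between replicates and 17 moved by more; of 963 values of other genes, 788 kept their call, 175 lost it and 0 reversed. Leaving out 1 array gave 2 to 4 calls among the 43 other genes for KSR1 against GFP cells, 8 to 12 for the double line against H-RasV12 cells, 6 to 12 against GFP cells and 5 to 12 against KSR1 cells, 2 to 7 for the interaction and 0 to 0 for H-RasV12 against GFP cells. The interaction's 6 calls became 3 without replicate 2 of the GFP line, 2 without replicate 2 of the H-RasV12 line, and 3 without replicate 2 or 3 of the KSR1 line. For KSR1 against GFP cells the 2 calls became 5 after quantile normalization, 6 with the replicate block and 7 with array weights; the causes were not tested. Replicates 1 and 3 alone, chosen after seeing the data and with fewer arrays, left 1 call against KSR1 cells, 3 against H-RasV12 cells and 3 against GFP cells for the double line, 0 for KSR1 against GFP cells and 0 for the interaction. Over 18 pairs of same-numbered arrays of different lines the deviations correlated at -0.02 to 0.51 (median 0.20), with 13 over 0.1. Over 36 pairs with different numbers they correlated at -0.44 to 0.24 (median -0.13), with 6 over 0.1. Same-numbered arrays thus tended to deviate together. The labels do not say what a number shares, and the main fit left the numbers out. The block left each member difference as it was, because all lines hold each number once, and gave Tfrc 103957_at an SE of 0.25 in place of 0.36. Median centring shifted the median of all tested probe sets by over 0.1 in 2 comparisons: to 0.09 in place of -0.07 for the double line against KSR1 cells and to 0.09 in place of -0.08 for the interaction. Dim probe sets (Aco1, the 5' and middle Tfrc controls) are limited by their signal.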
